A study of Mus musculus with 5 samples.

Results

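Saa1, Saa2, Saa3, Lcn2, Ltf and Slpi encode secreted proteins of the acute-phase response and of innate defense. They were taken by symbol from the 27998 genes counted in 5 single-cell RNA libraries of mouse mammary gland and mammary tumor, and all 6 were found. They were chosen with their levels in these libraries known, so their levels and differences below are a description and carry no test. Cells were placed in 13 classes by marker genes that include none of the 6.

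Saa1, Saa2 and Saa3 are serum amyloid A proteins, small apolipoproteins that the liver releases in inflammation and that other cell types can make locally. Their genes are classic targets of interleukin 1 and interleukin 6, acting through NF-kB, C/EBP and STAT3 factors. Lcn2 (lipocalin 2) binds bacterial iron-carrying siderophores, Ltf (lactoferrin) is an iron-binding protein of milk and of neutrophil granules, and Slpi (secretory leukocyte protease inhibitor) blocks neutrophil elastase at mucosal surfaces.

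The gland libraries came from mice with Krt14cre, Trp53 flox/flox and either Brca1 wt/flox (BPK) or Brca1 wt/wt (PK). Floxed Trp53 and Krt14cre were thus common to all groups, controls included, and Krt14-driven Cre acts in keratin 14 expressing epithelium and its descendants, not in stroma. Glands received 12 intraductal injections of the PBS/PEG vehicle (BPK vehicle, 1 library) or of 4NQO, a quinoline carcinogen that forms bulky DNA adducts (PK 4NQO, 1 library; BPK 4NQO, 2 libraries). The BPK tumor (1 library) had formed after 24 injections of 4NQO. The labels give neither age nor whether the libraries come from separate animals, so the spread between the BPK 4NQO libraries may be technical. Lymph nodes were removed before digestion.

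Filters kept 31434 of 34526 barcodes. The libraries held 27383717 to 64169843 UMIs, with medians per barcode of 2523 (BPK 4NQO replicate 2, the shallowest) to 15195.5 (the tumor). BPK 4NQO replicate 2 stood apart. It had 1 or 2 cell barcodes in common with each other library, where the remaining pairs had 26 to 107. Its library chemistry may therefore differ from the labelled one, which was not tested and bears on each difference and SD between the BPK 4NQO replicates. It also held more macrophages and T cells (623 and 395) than replicate 1 (104 and 121). No lineage was given to 1914 cells (6.09%). Levels are UMIs of a gene per 1000000 UMIs of a class in a library (CPM), with exact Poisson 95% intervals that cover counting error only. The fibroblast lineage markers summed to 25512 to 38974 CPM in fibroblasts and the endothelial ones to 4979 to 6623 in endothelium. In mural cells the basal epithelial list, which shares contractile genes, exceeded the mural list in the 4 gland libraries, so that class is less certain. A summed class level cannot tell more positive cells from more RNA per cell, so shares of cells are given beside it.

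The promoters of the 6 genes are shown first, since acute-phase genes are known as targets of C/EBP factors. Each run is the 250 bases before the start of the gene in RefSeq (GRCm38.p6), 5′ to 3′ on the strand of the gene. Capitals mark a match to TTGCNNAA, a C/EBP recognition motif, on either strand.
Saa1: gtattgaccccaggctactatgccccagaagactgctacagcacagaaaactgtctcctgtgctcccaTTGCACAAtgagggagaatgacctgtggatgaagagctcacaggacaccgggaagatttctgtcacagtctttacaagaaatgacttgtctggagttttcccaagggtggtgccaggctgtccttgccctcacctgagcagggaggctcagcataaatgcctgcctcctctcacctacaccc
Saa2: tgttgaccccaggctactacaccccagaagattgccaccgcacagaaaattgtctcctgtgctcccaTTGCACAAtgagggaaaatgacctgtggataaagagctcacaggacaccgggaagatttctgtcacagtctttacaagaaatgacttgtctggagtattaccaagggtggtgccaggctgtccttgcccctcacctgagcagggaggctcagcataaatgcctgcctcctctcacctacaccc
Saa3: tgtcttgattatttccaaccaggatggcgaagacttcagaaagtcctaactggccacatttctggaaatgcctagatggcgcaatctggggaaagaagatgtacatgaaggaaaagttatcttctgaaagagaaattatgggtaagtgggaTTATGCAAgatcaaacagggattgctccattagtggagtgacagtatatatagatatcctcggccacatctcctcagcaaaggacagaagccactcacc
Lcn2: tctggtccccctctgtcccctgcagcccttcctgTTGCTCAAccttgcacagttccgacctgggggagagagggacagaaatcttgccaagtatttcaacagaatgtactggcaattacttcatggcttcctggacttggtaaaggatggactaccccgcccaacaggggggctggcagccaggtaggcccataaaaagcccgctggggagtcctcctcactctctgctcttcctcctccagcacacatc
Ltf: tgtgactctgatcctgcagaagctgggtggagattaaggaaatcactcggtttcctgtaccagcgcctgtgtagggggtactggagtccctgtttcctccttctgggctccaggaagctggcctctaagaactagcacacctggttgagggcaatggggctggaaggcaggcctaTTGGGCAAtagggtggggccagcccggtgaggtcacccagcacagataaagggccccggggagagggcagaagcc
Slpi: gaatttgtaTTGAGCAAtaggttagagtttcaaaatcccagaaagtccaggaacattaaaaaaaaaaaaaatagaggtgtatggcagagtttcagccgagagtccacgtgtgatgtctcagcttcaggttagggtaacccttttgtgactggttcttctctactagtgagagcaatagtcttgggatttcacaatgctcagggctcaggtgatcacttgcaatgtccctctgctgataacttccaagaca

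The windows lie at chr7:46742981-46743230 (Saa1, minus strand), chr7:46751583-46751832 (Saa2, plus) and chr7:46715677-46715926 (Saa3, minus). Those of the others lie at chr2:32387740-32387989 (Lcn2, minus), chr9:111019042-111019291 (Ltf, plus) and chr2:164356508-164356757 (Slpi, minus). All 6 hold TTGCNNAA, which was found in 9.56% of 32851 RefSeq windows of the same length. The match begins 182 bases before the start in Saa1, 183 in Saa2, 99 in Saa3, 216 in Lcn2, 75 in Ltf and 241 in Slpi. The 10-base NF-kB consensus was found in 0 of the 6 windows, against 7.25% of all. A match of letters is not a measured binding site, and no match says only that the letters are not in this window.

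Saa1 (ENSMUSG00000074115, mm10 chromosome 7, 46740497 to 46742980), Saa2 (ENSMUSG00000057465, 46751790 to 46754313) and Saa3 (ENSMUSG00000040026, 46711998 to 46715700) are neighbours. The promoters of Saa1 and Saa2 were 94.8% identical, and their transcripts were 93.9% identical, or 92.4% over the last 300 bases, where a 3' library is read. Reads of Saa1 and Saa2 can therefore be assigned to the other copy or dropped as ambiguous, and their separate levels are uncertain. Saa3 differed from both, with promoters 48.9% and 47.9% identical and last 300 bases 49.5% and 40.7% identical. Lcn2 (ENSMUSG00000026822) spans chromosome 2, 32384633 to 32388252, and Slpi (ENSMUSG00000017002) spans 164354070 to 164389095 of the same chromosome. Ltf (ENSMUSG00000032496) spans chromosome 9, 111019271 to 111042767.

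The genes fell in different places. Most Saa3 UMIs were in fibroblasts, except in BPK vehicle, where 12 of its 23 UMIs were in luminal alveolar cells. In BPK 4NQO replicate 2 fibroblasts held 58.8% of the Saa3 UMIs. Macrophages there exceeded fibroblasts in level (114 against 94.9 CPM) and in share of cells (4.33% against 2.93%). Lcn2 and Ltf were highest in luminal alveolar cells, the milk-producing lineage, and Slpi was highest in basal cells among the large epithelial classes. Saa1 and Saa2 were found in few cells. Of the Saa1-positive cells, luminal alveolar cells were 42 of 62 in BPK vehicle and 36 of 47 in PK 4NQO. In BPK 4NQO they were 15 of 35 and 4 of 18, and in the tumor 1 of 18. For Saa2 they were most of the positive cells in each gland library and 0 of 8 in the tumor. Over all libraries Saa1 had 509 UMIs, Saa2 157, Saa3 24138, Lcn2 158167, Ltf 59142 and Slpi 161613.

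**Figure D1:**
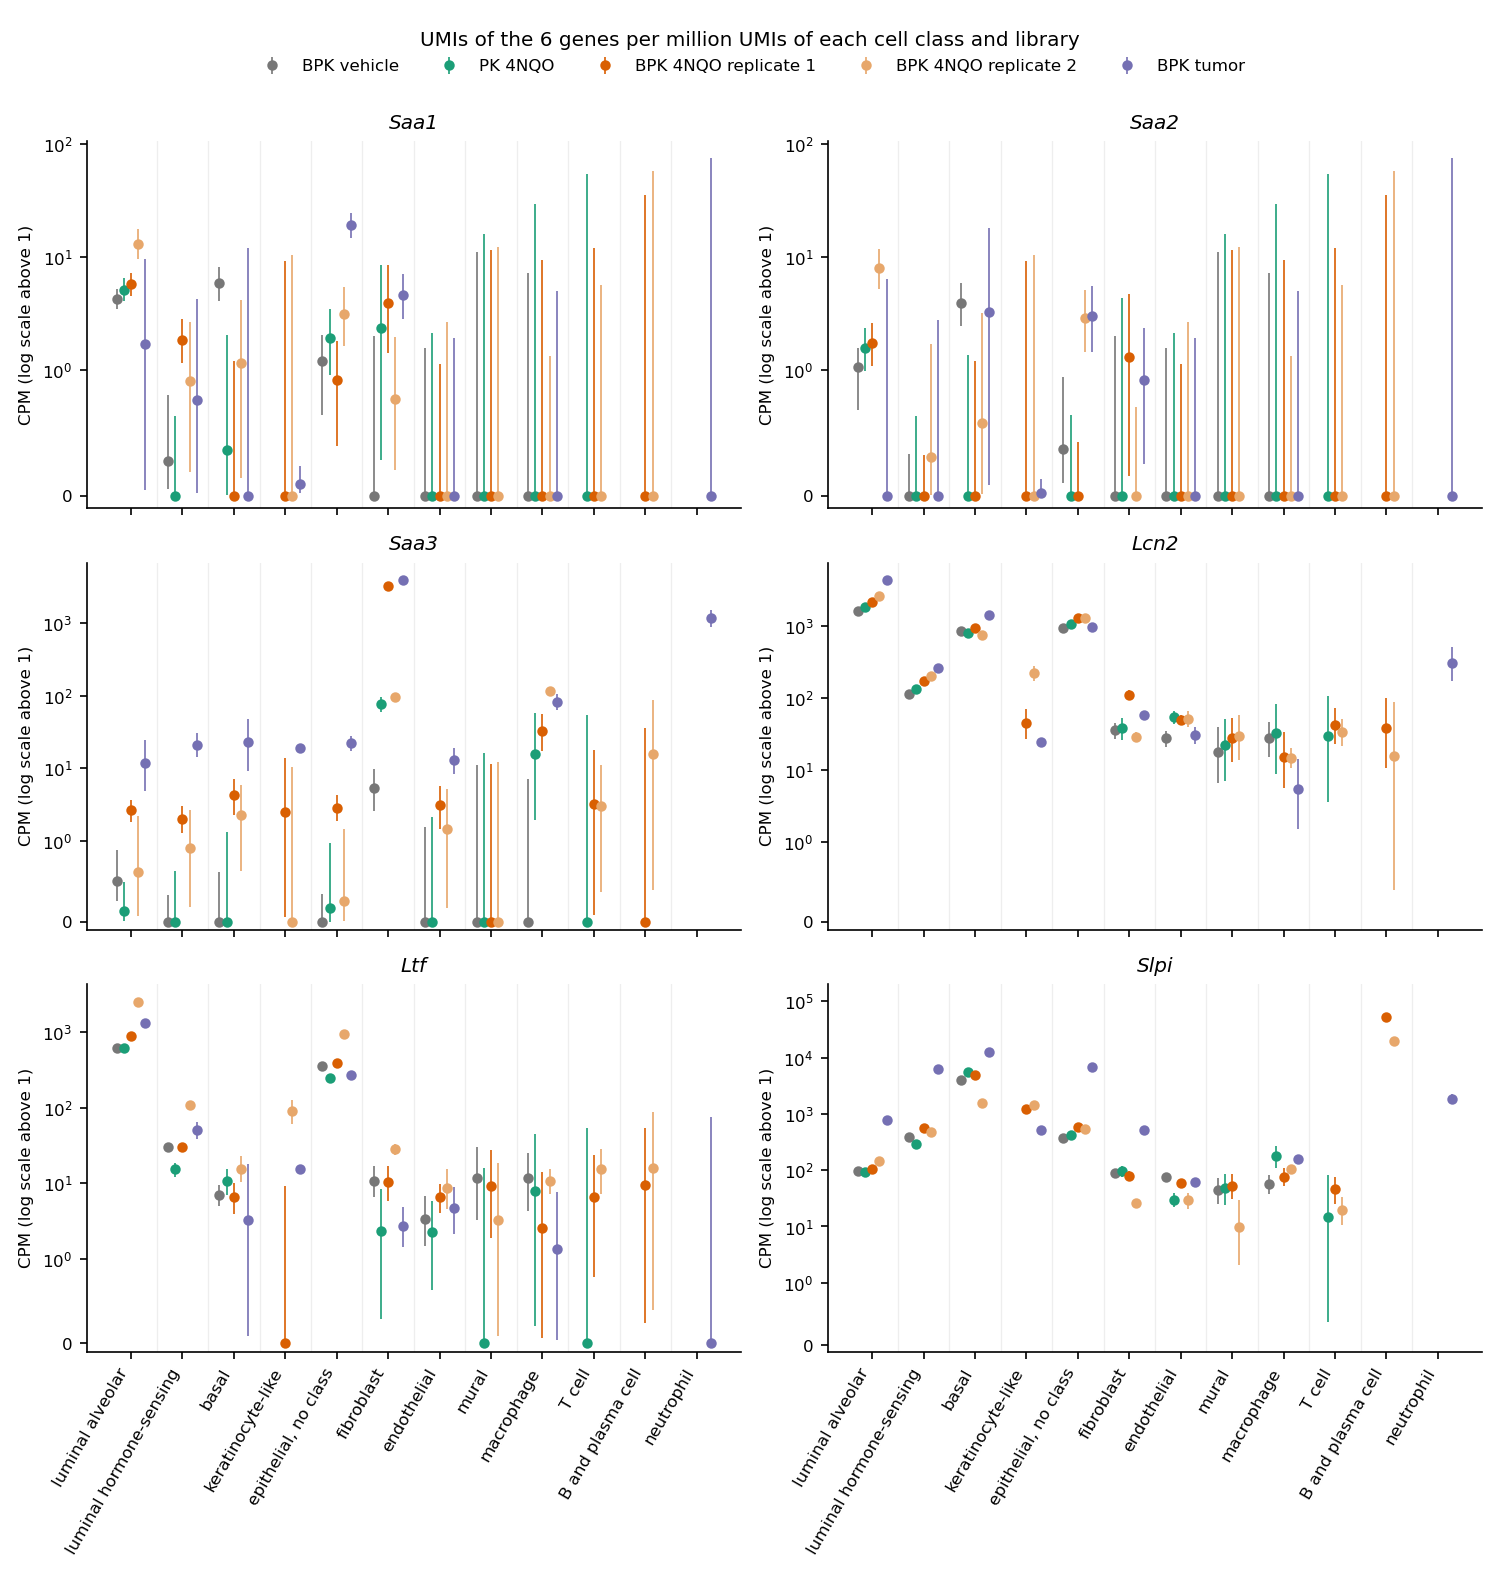
Level of each gene in CPM (vertical axis, logarithmic above 1) by cell class, for class and library sums of at least 20 cells. Points are libraries and bars are exact Poisson 95% intervals. Saa3 stands out in fibroblasts of BPK 4NQO replicate 1 and of the tumor (3254 and 3859 CPM), and Slpi in B and plasma cells (53143 and 19955 CPM in BPK 4NQO).

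Saa3 in fibroblasts was at 5.41 CPM in BPK vehicle (10 UMIs in 746 cells) and at 76.1 in PK 4NQO. It was at 3254 and 94.9 in BPK 4NQO replicates 1 and 2, and at 3859 in the tumor. The BPK 4NQO libraries lay 34.3-fold apart, with a mean of 1675 ± 2234 (SD, n = 2), and replicate 2 was close to the PK 4NQO library. Both exceeded BPK vehicle. A fibroblast with a UMI was 1 of 746 in BPK vehicle (0.134%), 10 of 424 in PK 4NQO (2.36%), and 65 of 442 (14.7%) and 36 of 1227 (2.93%) in BPK 4NQO. In the tumor it was 149 of 258 (57.8%). Thinned to 1500 UMIs per cell, the shares were 0.172%, 2.35%, 10.8%, 2.22% and 34.0% in the same order.

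Few cells carried most of this signal. Fibroblasts with at least 5 Saa3 UMIs, a limit set after the values were seen, were 1, 3, 35, 15 and 86 cells in the order above. They held 100%, 81.5%, 98.9%, 94.3% and 99.5% of the fibroblasts' Saa3 UMIs. The richest cell had 1172 Saa3 UMIs in BPK 4NQO replicate 1 and 1492 in the tumor, against 31 in PK 4NQO, 98 in replicate 2 and 10 in BPK vehicle. The BPK vehicle level rests on that 1 cell. Without the richest cell of each library, a check added after seeing the data, the levels were 0, 40.0, 2510, 76.2 and 3539 CPM. In replicate 1 the 35 cells devoted 23006 CPM to Saa3, and in the tumor the 86 cells 10389.

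**Figure D2:**
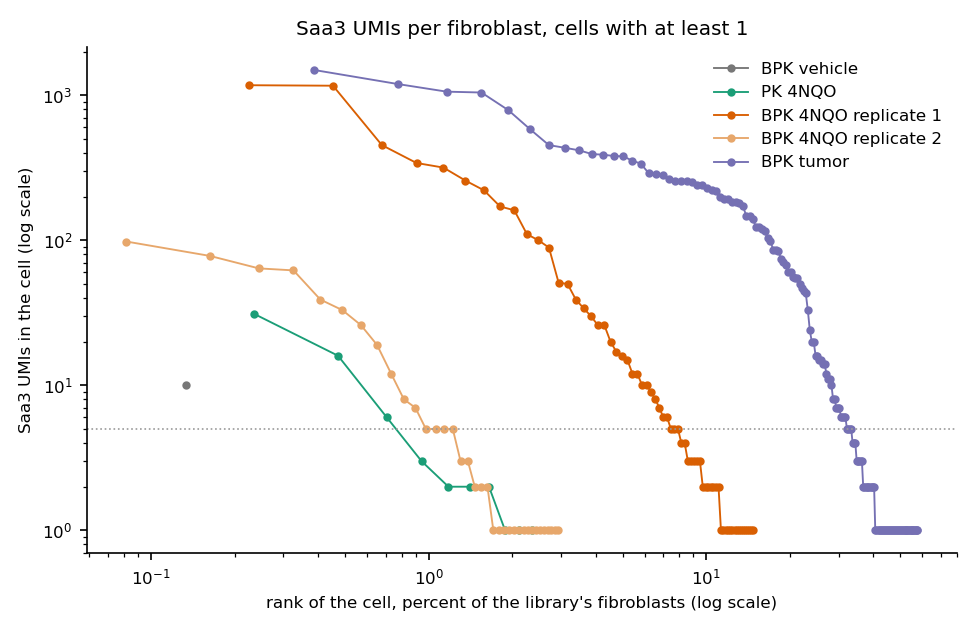
Saa3 UMIs of each fibroblast with at least 1 (vertical axis, logarithmic) against its rank as a percent of the fibroblasts of its library (horizontal axis, logarithmic); the dotted line is 5 UMIs. Only BPK 4NQO replicate 1 and the tumor hold cells with over 1000 Saa3 UMIs, and 33.3% of tumor fibroblasts lie on or above the line.

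The Saa3-rich fibroblasts had higher levels of some other acute-phase genes than the fibroblasts without Saa3. Of the 24 on the list, 11 were higher in the rich cells of both BPK 4NQO replicate 1 and the tumor, 7 had no UMI in the cells compared, and 6 were not higher in both. Among these 6, Serpina3f differed by -0.20 and 0.07, and Ptx3 by -0.10 and 1.10, on the log2(CPM + 10) scale. Higher here means any positive difference on that scale, such as 0.21 for Cp in replicate 1. The share of all genes higher in both libraries was not computed, so the count of 11 has no background beside it. Of the other 5 members, Lcn2 stood out, at 606 CPM in the rich cells and 29.8 in the cells without Saa3 of replicate 1. In the tumor it was at 132 against 8.27. Lcn2 was found in 20 of the 65 Saa3-positive fibroblasts of replicate 1 (30.8%) and in 7.16% of the rest, and in 29.5% against 10.1% in the tumor. In replicate 2 it was found in 9 of 36 positive cells against 7.22% of the rest, with levels of 32.6 and 28.6 CPM. In PK 4NQO it was found in 2 of 10 positive cells against 5.31% of the rest, with levels of 66.5 and 36.4 CPM. Hp, which encodes the hemoglobin scavenger haptoglobin, was at 92.5 against 17.5 CPM in replicate 1 and 314 against 51.0 in the tumor. Lbp, Cfb, Serpina3n and Steap4, further acute-phase genes, were also higher in the rich cells of both libraries, by 1.18 to 1.80 in replicate 1 and 1.31 to 1.71 in the tumor on the log2(CPM + 10) scale. Cxcl5, a neutrophil chemokine outside the lists and named after its values were seen, was at 1027 against 25.4 CPM and at 1341 against 133. The rich cells were deeper, with median totals of 5789 against 2527 UMIs in replicate 1 and 15900 against 12608 in the tumor. Ptprc, the pan-leukocyte marker, was at 0 and 0.62 CPM in the rich cells and Dcn, a fibroblast marker, at 6261 and 3835. Both genes are lineage markers of the gate, so these values follow in part from how the cells were placed. Cells were grouped by the gene described, so no test is given.

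**Figure D3:**
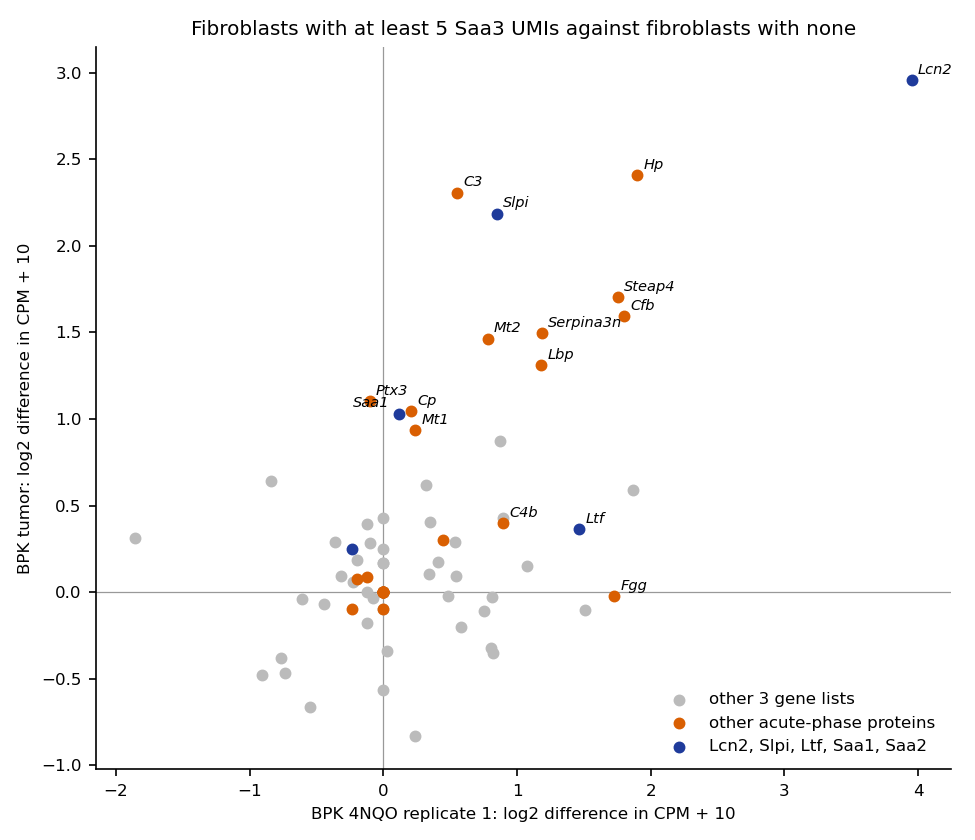
Log2 difference in CPM + 10 between fibroblasts with at least 5 Saa3 UMIs and fibroblasts with none, in BPK 4NQO replicate 1 (horizontal) and in the tumor (vertical), for the genes of the 4 lists and the other 5 members. Lcn2 (3.95 and 2.96) lies farthest out, with Hp, Steap4, Cfb, Serpina3n and Lbp on the same side in both libraries.

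Outside fibroblasts Saa3 was low in the glands except in macrophages. These had 0 UMIs in BPK vehicle (121 cells), 16.0 CPM in PK 4NQO, 32.9 and 114 in BPK 4NQO and 82.1 in the BPK tumor. A UMI was found in 0, 1, 8, 27 and 14 macrophages, or 0%, 1.79%, 7.69%, 4.33% and 15.7%, so that replicate 2 had a higher level than replicate 1 but a lower share of cells. A single cell held 145 of the 317 UMIs of replicate 2, and a single cell 42 of the 60 of the tumor. Macrophages of replicate 2 held 37.7% of the Saa3 UMIs of that library, against 0.252% in replicate 1. The BPK 4NQO mean was 73.6 ± 57.6 CPM (SD, n = 2), 12.6 times the 3-UMI floor of the vehicle macrophages (5.86 CPM). This allows for the 0 count of BPK vehicle only, and not for the spread of the BPK 4NQO pair or between cells. In the tumor 26 neutrophils had 57 Saa3 UMIs (1159 CPM, 95% interval 878 to 1502), in 5 cells. Epithelial and endothelial tumor cells, by class, were at 12.0 CPM (36 luminal alveolar cells) to 22.9 (27 basal cells). The 131 tumor cells of no lineage were at 198 CPM, with 90 of 199 UMIs in 1 cell. Keratinocyte-like tumor cells (19.3 CPM) had a UMI in 46.2% of cells at a median depth of 35985 UMIs, and in 3.27% after thinning. The richest of them had 24 UMIs. The fibroblast share was 57.8% at a median depth of 14771. The part of free RNA in these low levels was not tested.

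Saa1 and Saa2 were near the detection limit. In luminal alveolar cells Saa1 was at 4.29 CPM in BPK vehicle, 5.16 in PK 4NQO, 5.73 and 13.2 in BPK 4NQO and 1.72 in the BPK tumor. These came from 42 of 2099, 36 of 1930, 15 of 1237, 4 of 505 and 1 of 36 cells. The higher level of replicate 2 thus came from fewer cells with more UMIs each, 43 UMIs in 4 cells. Saa2 was found in 9, 5, 7, 5 and 0 luminal alveolar cells in the same order, at 1.06, 1.56, 1.73, 7.96 and 0 CPM. The 36 tumor cells, with 0 Saa2 UMIs, are too few for a statement.

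Saa2 was mostly seen with Saa1. Both were found in 5, 4, 7 and 4 luminal alveolar cells of the 4 gland libraries. In BPK 4NQO replicate 1 all 7 Saa2-positive cells had Saa1. All Saa1-positive luminal alveolar cells, in each library, had Lcn2 as well, as did 93.8% to 100% of the Saa1-negative ones. Lcn2 was at 1810 CPM in Saa1-positive and 1612 in Saa1-negative cells of BPK vehicle, and at 3099 against 1807 in PK 4NQO. In BPK 4NQO it was at 3511 against 2110 and at 4271 against 2543. The order was the same in all 4 gland libraries, and it was the other way round in the tumor, with 1 positive cell. Ltf was lower in the positive cells of BPK vehicle, at 55.0 against 629 CPM. In PK 4NQO it was at 374 against 609, and in BPK 4NQO at 580 against 894 and at 131 against 2526. The shares of cells with an Ltf UMI did not all go the same way. They were 35.7% of Saa1-positive against 52.4% of Saa1-negative cells in BPK vehicle, and 63.9% against 53.2% in PK 4NQO. In BPK 4NQO replicates 1 and 2 they were 73.3% against 66.4% and 50% against 57.5%.

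Single groups of cells outside the alveolar class added most other Saa1 UMIs. In BPK vehicle 7 basal cells held 35 Saa1 and 3 held 23 Saa2 UMIs, against 2 and 1 UMIs over both BPK 4NQO libraries. In the tumor 6 epithelial cells of no class held 63 of 89 Saa1 UMIs. Saa1 and Saa2 were at 0 in endothelial, mural, macrophage, T and B cells and neutrophils of every library.

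Lcn2 in luminal alveolar cells was at 1616 CPM in BPK vehicle, 1835 in PK 4NQO, 2132 and 2584 in BPK 4NQO and 4359 in the BPK tumor. It was found in 99.0%, 97.4%, 98.4%, 93.9% and 100% of the cells, and in 81.2% to 91.4% after thinning. The tumor level rests on 36 cells. Basal cells were at 832, 785, 923, 745 and 1395 CPM in the same order, the tumor value from 27 cells. Hormone-sensing luminal cells were at 114, 131, 169, 203 and 255 CPM, and there 5% of the cells held 65.2% to 70.5% of the UMIs. With a stricter gate (a score ratio of 2), these levels were 57.0, 67.3, 95.8, 89.1 and 287, so the gland values rest partly on cells near the gate.

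Over the BPK 4NQO libraries the order of Lcn2 was luminal alveolar (2358 ± 319 CPM, SD, n = 2), basal (834 ± 125) and hormone-sensing (186 ± 24.1), with no overlap between neighbours. Keratinocyte-like cells (132 ± 123) overlapped the last. Epithelial cells of no class, which hold mixed marker scores, lay between the first and second at 1272 ± 8.58. Fibroblasts (69.1 ± 57.0), endothelial (49.8 ± 1.68), T (37.9 ± 6.08) and mural cells (28.9 ± 1.37) followed, and their libraries overlapped or nearly so. Endothelium, taken as the comparison class for free RNA, had a UMI in 4.99% to 13.6% of cells at median depths of 1743 to 10457.5. Keratinocyte-like tumor cells were at 24.1 CPM, below the 30.1 of tumor endothelium. In the 26 tumor neutrophils, whose granules carry the protein, Lcn2 was at 305 CPM (15 UMIs, 95% interval 171 to 503).

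Ltf was found mainly in luminal alveolar cells of the glands. Luminal alveolar cells held 77.1%, 85.1%, 75.1%, 65.0% and 31.2% of the Ltf UMIs of BPK vehicle, PK 4NQO, BPK 4NQO replicates 1 and 2 and the tumor, where epithelial cells of no class held 36.9%. The level in luminal alveolar cells was 615, 604, 888, 2470 and 1291 CPM, so that replicate 2 exceeded all other libraries and BPK vehicle and PK 4NQO hardly differed. The mean of BPK 4NQO was 1679 ± 1118 (SD, n = 2). Ltf was found in 52.0% to 66.5% of luminal alveolar cells, against 93.9% or more for Lcn2, and 5% of the cells held 37.4% to 52.0% of its UMIs. Hormone-sensing cells were at 30.1, 15.2, 30.2, 107 and 50.1 CPM and basal cells at 6.94, 10.6, 6.53, 15.6 and 3.27. Endothelium, as background, was at 2.30 to 8.74. Tumor neutrophils had 0 Ltf UMIs, which at 49167 UMIs allows up to 61.0 CPM.

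Slpi in basal cells was at 4002 CPM in BPK vehicle, 5479 in PK 4NQO, 4862 and 1548 in BPK 4NQO and 12423 in the BPK tumor (27 cells). Replicate 2 was the lowest of all libraries, 3.14-fold below replicate 1. A UMI was found in 79.2%, 85.8%, 87.6%, 68.6% and 96.3% of basal cells. Hormone-sensing cells were at 387, 293, 559 and 472 CPM in the glands and at 6376 in the tumor, where 5% of the 77 cells held 57.0% of the UMIs. Luminal alveolar cells were at 97.2, 91.5, 106 and 144 CPM in the glands and 783 for the tumor library. Keratinocyte-like cells, which Krt6a and Krtdap mark, were at 1196 (32 cells) and 1444 (57 cells) in BPK 4NQO and at 516 in the BPK tumor (1183 cells). Epithelial tumor cells of no class were at 6692, against 372 to 580 in the glands. Endothelium was at 29.1 to 75.8 CPM in all 5 libraries, the tumor included at 61.2.

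Fibroblasts had Slpi at 90.8, 94.8, 79.6 and 25.7 CPM in the glands and at 509 in the tumor. There it was found in 75.2% of fibroblasts, or 28.9% after thinning, against 44.8% and 9.15% of tumor endothelial cells. The 7 epithelial lineage markers summed to 1268 CPM in tumor fibroblasts and to 155 to 496 in those of the glands, and their part in the Slpi level was not tested. In tumor fibroblasts Slpi was at 681 CPM in Saa3-positive and 166 in Saa3-negative cells.

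The highest Slpi level was in a small immune class. In BPK 4NQO replicates 1 and 2 the B and plasma cell class had 25 and 30 cells and Slpi at 53143 and 19955 CPM. These cells held 15.7% and 13.0% of all Slpi UMIs of their libraries. The signal lay in cells with Jchain, which encodes the joining chain of secreted antibodies, but the most Jchain did not go with the most Slpi. The cell with the most Jchain had 278 Jchain and 15 Slpi UMIs in replicate 1, and 245 and 2 in replicate 2. The cell with the most Slpi had 109 Jchain and 1354 Slpi UMIs in replicate 1, and 17 and 280 in replicate 2. In the 21 and 20 cells with at least 10 Jchain UMIs, Slpi made up 5.97% and 2.77% of all UMIs and was found in 21 and 19 cells, with a median of 197 and 39 UMIs per cell. In the 4 and 10 cells with fewer, it was found in 0 and 1 cells. T cells of the same libraries had Slpi at 45.5 and 19.9 CPM. The Jchain-rich cells had 579 and 215 UMIs of Mzb1 and 124 and 106 of Xbp1, both secretory genes of plasma cells. Of other plasma cell genes, Sdc1 had 11 and 5 UMIs and Prdm1 3 and 13. Of epithelial genes, there were 5 and 4 UMIs of Epcam, 11 and 2 of Krt18, 1 and 0 of Krt14 and 0 of Krt5. Jchain and Mzb1 are gate markers of the class, and these epithelial genes are gate markers of the epithelial lineage. Their counts in the Jchain-rich cells therefore follow in part from the gate. Whether these cells transcribe Slpi or carry RNA from other cells was not tested. BPK vehicle and PK 4NQO had 6 and 1 cells of the class and none with 10 Jchain UMIs. The limit of 10 was set after the values were seen.

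**Figure D4:**
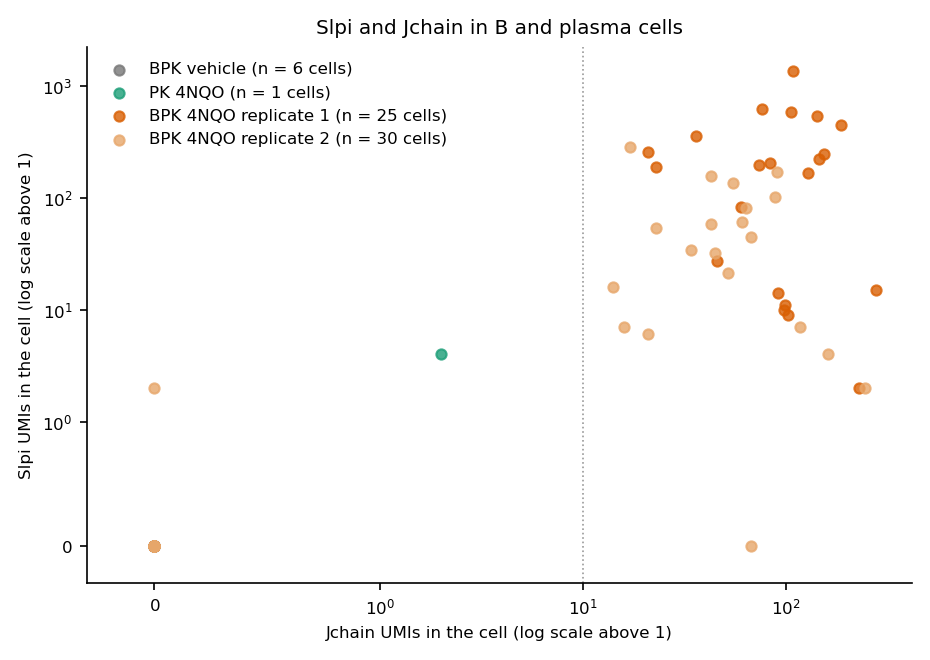
Slpi UMIs (vertical) against Jchain UMIs (horizontal) of each B or plasma cell, both axes logarithmic above 1, with colours for the libraries and a dotted line at 10 Jchain UMIs. The cells right of the line, all from BPK 4NQO, carry up to 1354 Slpi UMIs, and only 1 of them has none.

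In the Pearson correlation of log2(CPM + 1) over the 42 class and library sums of at least 30 cells, the genes most like each member were as follows. The sums share libraries, so the values are descriptive, and they depend on the measure. By Spearman's rho 0 of the 5 for Lcn2, 1 each for Saa2, Saa3 and Ltf, and 3 each for Saa1 and Slpi were among the 5 nearest. For Lcn2 they were Ccdc129 (0.86), C2cd4b, Muc15, Sox10 and Tspan8 (0.84). For Ltf they were Slc28a3 (0.90), Elf5 (itself an alveolar gate marker), Atp6v1b1, Clic6 and Plb1 (0.81). For Slpi they included Fam83g (0.74), Sfn and Fermt1 (0.71). For Saa3 they were Crabp1 (0.72), Ccl8, Sfrp4, Cfb and Emilin2 (0.69), of which Cfb is complement factor B. Saa1 was nearest to Col11a1 (0.74) and Saa2 to Ccdc129 (0.67). Among the members themselves, Saa1 and Saa2 had 0.88, Lcn2 and Ltf 0.72, and Saa3 and Lcn2 -0.24.

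The treatment comparison set BPK 4NQO against BPK vehicle. Saa3 in fibroblasts had a log2 fold change of 8.21 ± 1.82 (SE), and 3.81 without BPK 4NQO replicate 1. Lcn2 in luminal alveolar cells differed by 0.38 ± 0.95 and Ltf by 1.24 ± 0.95. Slpi in basal cells differed by -0.39 ± 1.22, or -1.69 without replicate 1. Saa1 in basal cells was 14.2-fold higher in BPK vehicle than in the summed BPK 4NQO counts (counting interval 3.93 to 117, from 2 UMIs in BPK 4NQO). Its 35 vehicle UMIs came from 7 of 1540 cells, with 17 in 1 cell. The interval covers counting error only, not the spread between cells or libraries. The standard errors of the members, here and in the comparisons below, come from the edgeR fit. A difference set against its standard error would thus be a test of genes chosen with their levels known. The standard errors are therefore descriptive, and no rise or fall of Lcn2, Ltf or Slpi is read from them here. The comparison with PK 4NQO uses the same BPK 4NQO libraries, so its values are not a second measurement.

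Other genes of the response were tested from 4 lists of 80 genes with edgeR's quasi-likelihood test on class sums. The lists were chosen with earlier results of these data known, so these are not independent tests. For each comparison below, the adjusted p values of list genes are therefore descriptive. So are the counts of called pairs and their setting against all genes. In the treatment comparison 4 of 297 gene and class pairs rose and 0 fell, against 0.26% of all genes tested in either direction, 0.206% higher and 0.0534% lower. Serpina3f, a serine protease inhibitor of the acute-phase family, rose in fibroblasts (adjusted p = 0.039). There BPK vehicle had 0 UMIs and BPK 4NQO 38 and 37, with a mean 9.77 times the 3-UMI floor of BPK vehicle. Serpina3f also rose in endothelium, from 1 UMI to 40 and 54 (adjusted p = 0.00082, ratio 60.8, counting interval 10.9 to 2400). Serpina3g rose in endothelium, from 2.13 CPM to 11.8 and 53.2 (adjusted p = 0.014). Serpina3f and Serpina3g are close paralogs, and reads may be split between them. Lyz2, the macrophage lysozyme, rose in endothelium, from 5.53 CPM to 13.3 and 112 (adjusted p = 0.029). Its adjusted p was 0.054 with doublets kept and 0.055 without the low-count filter. The 7 macrophage markers, of which 5, 6 and 7 had UMIs, summed there to 7.23, 10.2 and 106 CPM, and their part in the rise was not tested. DESeq2 called 0 pairs (0.0981% of all genes), with 27 at an unadjusted p under 0.05, as many as edgeR had. Without replicate 2 the log2 difference of Lyz2 was 1.27.

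In fibroblasts 13 of 24 other acute-phase genes were tested. Of these 1 was called, against 0.254% of all genes higher in fibroblasts, and 11 had a positive log2 difference, with a median of 1.35 against 0.07 for all 10620 genes tested. Uncalled examples were Serpina3n, at 100.0 CPM in BPK vehicle against 498 and 387 in BPK 4NQO, and Cfb, at 7.57 against 72.5 and 32.3. In PK 4NQO they were at 229 and 22.2. The shift was not particular to the vehicle comparison. Against PK 4NQO, which received 4NQO as well, 10 of the 13 genes had a positive log2 difference. Their median was 1.42 against 0.05 for all 10620 genes, from the same BPK 4NQO libraries. Of the cytokine and signaling list 0 of 131 pairs were called by edgeR (1 at an unadjusted p under 0.05) or DESeq2 (0 at that p), and of the receptor list 0 of 51 (0 and 1).

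The genotype comparison set BPK 4NQO against PK 4NQO, the only library processed with Cell Ranger 3.0.2 instead of 5.0.1, so that genotype, library and software version cannot be told apart. Saa3 in fibroblasts had a log2 fold change of 4.56 ± 1.49 (SE), but 0.15 without replicate 1 and 5.52 without replicate 2. It thus rests on 1 library. Lcn2 in luminal alveolar cells differed by 0.18 ± 0.94, Ltf by 1.25 ± 0.96, Slpi in basal cells by -0.84 ± 1.20 and Slpi in hormone-sensing cells by 0.66 ± 1.12. Of the 4 lists 1 of 314 pairs was called, against 0.11% of all genes tested (0.0956% higher and 0.0148% lower). This was Lyz2 in endothelium, at 2.88 CPM in PK 4NQO (adjusted p = 0.011). The macrophage markers there summed to 2.88 CPM, and their part was again not tested. DESeq2 called 0, and 0.0108% of all genes (12 pairs at an unadjusted p under 0.05, 16 by edgeR).

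**Figure D5:**
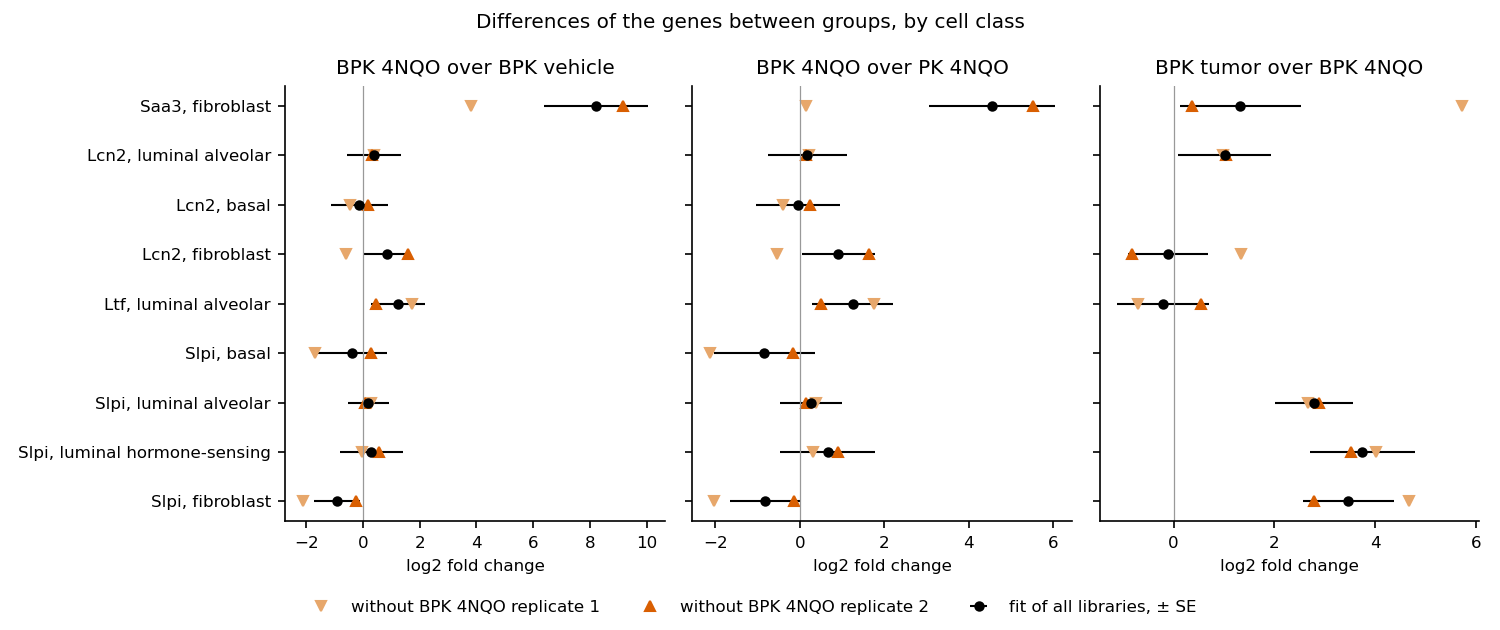
Log2 fold change (horizontal axis) of the genes in the classes named at the left, for the 3 comparisons. Black points are the edgeR fit of all libraries with ± SE, and triangles leave out 1 BPK 4NQO library. Saa3 in fibroblasts moves from 8.21 to 3.81, from 4.56 to 0.15 and from 1.32 to 5.71 without replicate 1, and Slpi lies above 0 in the tumor in the 3 classes drawn there.

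The tumor comparison set the BPK tumor against BPK 4NQO glands, which differ in the number of injections as well. Slpi was higher in the tumor by 3.74 ± 1.04 (log2, SE) in hormone-sensing cells, by 2.78 ± 0.77 in luminal alveolar cells and by 3.46 ± 0.90 in fibroblasts. In endothelium the difference was 0.56 ± 0.73 and in keratinocyte-like cells -1.08 ± 1.10. Saa3 in fibroblasts differed by 1.32 ± 1.19, and by 5.71 without replicate 1. Lcn2 differed by 1.02 ± 0.92 in luminal alveolar and by -2.12 ± 1.01 in keratinocyte-like cells, where the glands gave 32 and 57 cells. Ltf in luminal alveolar cells differed by -0.21 ± 0.92. Luminal alveolar cells were 1.61% of the kept tumor cells and keratinocyte-like cells 53.0%. Over all kept cells Lcn2 was at 142 CPM in the tumor, against 1009 and 638 in BPK 4NQO. Ltf was at 42.7 CPM, against 351 and 494. Such levels depend on the mix of classes.

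Of the 4 lists 8 pairs rose and 7 fell of 264 in the tumor, against 1.64% of all genes tested (0.89% higher and 0.746% lower, and 0.705% in either direction by DESeq2). Among inducing cytokines, Il1b, the ligand of the interleukin 1 receptor, rose in luminal alveolar cells from 1.80 and 2.45 CPM to 30.9 (adjusted p = 0.00095). Il1b, Il1a and Osm rose in endothelium. Il1b went from 0 and 13 UMIs to 348 (adjusted p = 8.9e-10 by edgeR, and 0.89 by DESeq2). Il1a went from 0 and 8 to 53 (adjusted p = 0.0060). Osm rose from 1 to 28 UMIs there (adjusted p = 0.024, ratio 66.8, counting interval 12.0 to 2639). In the same tumor cells the 6 neutrophil markers, all with UMIs, summed to 305 CPM, against 0.93 and 2.19 in BPK 4NQO, and their part was not tested. Il1a also rose in fibroblasts, from 0 and 5 UMIs to 57 (adjusted p = 0.0081), where the neutrophil markers summed to 24.6 CPM, against 1.94 and 1.73. With a gate ratio of 2 the endothelial calls of Il1a and Osm were lost (adjusted p = 0.31 and 0.24).

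Among acute-phase genes, Fgb (fibrinogen beta chain) rose in luminal alveolar cells from 7.38 and 31.5 CPM to 161 (adjusted p = 0.00043), while BPK vehicle was at 31.3. Hp rose in fibroblasts, from 29.1 and 3.65 CPM to 135 (adjusted p = 0.0023, and 0.19 by DESeq2). Serpina3f fell there from 24.6 and 7.11 CPM to 0.69 (adjusted p = 0.024). Cd36, a scavenger receptor that binds serum amyloid A, fell in fibroblasts from 41.4 and 45.1 CPM to 1.38 (adjusted p = 0.0017). Wfdc12, a relative of Slpi with the same inhibitor fold, rose in luminal alveolar cells, from 7.14 and 4.59 CPM to 34.3 (adjusted p = 0.017, and 0.075 with doublets kept). In hormone-sensing cells it fell from 33.4 and 65.6 CPM to 2.28 (adjusted p = 0.044, and 0.053 without the low-count filter). The other 4 called pairs fell in endothelium: Cp, Serpina3f, Steap4 and Cd36, with adjusted p from 0.0041 to 0.040. That of Cd36 was 0.088 without the low-count filter. Those 4 and Hp lie outside the rule for named genes and were named after their values were seen. DESeq2 called Cp, Steap4, both Cd36 pairs, Fgb and the alveolar Il1b, and did not call or gave no adjusted p for the others of the 15. The luminal alveolar calls rest on 36 tumor cells.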

How the data were processed

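The authors deposited a count of UMIs for each gene in each cell barcode, from Cell Ranger on mm10, per the submitters' processing notes. PK 4NQO was run with version 3.0.2, all else with 5.0.1, per the file headers. The labels name 3' v2 chemistry for all libraries, but the barcodes of BPK 4NQO replicate 2 leave it uncertain there. No 4NQO dose is printed, since the labelled unit is doubtful. The annotation release and the cell-calling rule: not given in the sources used here.

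Barcodes with fewer than 300 genes or over 20% mitochondrial counts were dropped (493 and 877, in part the same), and the top 0.8% per 1000 barcodes by scrublet score (scanpy 1.11.5, 2117 in all) were removed as doublets. A cell took the lineage, then the class, with the highest mean of ln(1 + counts per 10000) over its markers, if at least 2 markers had a UMI and the score was at least 1.5 times the next. Cells whose ratio lay between 1.5 and 2 were 1.10% to 17.9% of a class. Shares were also computed after thinning each cell to 1500 UMIs.

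Class sums of libraries with at least 30 cells were fitted with edgeR 4.0.16 (filterByExpr, TMM, quasi-likelihood F test, Benjamini-Hochberg within a class, adjusted p under 0.05) under R 4.3.3. The only residual degree of freedom comes from the BPK 4NQO pair, and the spread of groups with 1 library is taken from it. Counts were also simulated for the treatment comparison. In luminal alveolar cells (13165 genes) 44% of 100 genes changed 4-fold and 94% of those changed 8-fold were recovered. In fibroblasts (10515 genes) these shares were 49% and 94%. The simulated spread was preset, the same for every gene and not taken from the BPK 4NQO pair, and only genes above a set level were changed. The shares therefore do not give the recovery in the real libraries. Alternatives were DESeq2 1.42.0, RLE factors, no low-count filter, doublets kept, a gate ratio of 2, a mitochondrial limit of 10%, only the compared libraries, and leaving out each BPK 4NQO library. A count of 0 is bounded by 3 counts per library.

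The 6 genes and the lists were chosen with earlier results of these data known. Named beside the 6 were the 5 genes most like each, with a mean of at least 10 CPM, and up to 3 called list genes per class and comparison by absolute fold change, with both BPK 4NQO libraries on 1 side of the other group. Promoters are from RefSeq (GRCm38.p6), gene positions from GENCODE M21, and alignments used Biopython 1.88. The list gene Cebpd and the marker Trac were not analysed here. Some of the genes most like Slpi are not reported here.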

Additional observations from a re-analysis of the deposited data

How the results depend on the processing

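No paired analysis was possible because the labels give no replicate numbers shared between groups, and only BPK 4NQO has 2 libraries. DESeq2 called 68 genes in the treatment, 8 in the genotype and 421 in the tumor comparison, against 180, 82 and 976 by edgeR. A gate ratio of 2 gave 115 in treatment and 45 in genotype, and left too few tumor cells for the luminal alveolar and keratinocyte-like tests. Of the list pairs DESeq2 called 0 in treatment and 0 in genotype (27 and 12 at an unadjusted p under 0.05), against 4 and 1 by edgeR, and 10 in the tumor against 15. Leaving out each BPK 4NQO library gives values without a test. Saa3 in fibroblasts then ran from 3.81 to 9.16 (log2) in treatment, from 0.15 to 5.52 in genotype and from 0.36 to 5.71 in the tumor. Slpi in basal cells ran from -1.69 to 0.30 and from -2.14 to -0.17 in treatment and genotype. Slpi in hormone-sensing cells ran from -0.043 to 0.55, from 0.32 to 0.92 and from 3.52 to 4.02. It was 0.40 with doublets kept and 0.42 with a gate ratio of 2 in genotype, and 0.11 with that gate in treatment. The causes were not tested. No called value changed sign under any alternative run. RLE factors changed no call direction and no count by over 1.5 times.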
